A study of Stylosanthes guianensis with 6 samples.

Results

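Auxin, abscisic acid and brassinosteroid signalling was examined in roots of stylo (Stylosanthes guianensis), a tropical forage legume, through 30 unigenes, which are gene models of a transcriptome assembly. The 30 unigenes were chosen by the study from its own list of genes that differed between low and high phosphate in these same libraries, and they comprised 22 unigenes of auxin, 5 of abscisic acid and 3 of brassinosteroid signalling. They stood among 63 hormone-related unigenes of the study and 173014 unigenes in all. Because the choice rested on the contrast described here, the values of the members are given as a description, with no test, and their direction is no evidence on its own.

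RNA was sequenced from whole roots of the cultivar RY2, grown in nutrient solution for 21 d with 0 μM KH2PO4 (LP, low phosphate) or 250 μM KH2PO4 (HP, high phosphate), with 3 libraries per treatment. Both groups were of 1 cultivar, and each biological replicate was a hydroponic box of several seedlings. In the sample labels the phosphorus values are swapped, with 250 μM written on the LP libraries and 0 μM on the control libraries (titled CK). The doses of the study's methods were used. The comparison asked how low phosphate supply altered the root transcriptome.

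Auxin enters cells through influx carriers and is perceived by receptors that lead to the breakdown of Aux/IAA repressors, which frees auxin response factors (ARFs) to act on genes such as the GH3 and SAUR families. Abscisic acid binds PYR/PYL receptors, which block PP2C phosphatases and so release SnRK2 kinases to activate bZIP factors of the ABI5/ABF type. Brassinosteroids are perceived at the cell surface by a receptor kinase that works with the co-receptor BAK1 and is held back by the inhibitor BKI1. In Arabidopsis, auxin and brassinosteroid signalling are known for their part in root branching and root hair growth at low phosphate.

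The libraries held 20643446 to 21784888 estimated read counts under LP and 15586353 to 17821019 under HP, so that the LP libraries were the deeper ones. The unigene of the phosphate starvation marker SPX1 (Cluster-8255.18191) had 5916 to 7386 normalized read counts under LP and 115 to 133 under HP, and that of a phosphate transporter 1-4-like protein (Cluster-8255.75186) had 5384 to 7907 and 247 to 317. Both followed the doses of the methods rather than those of the labels. The 2 unigenes taken as root markers, both high-affinity nitrate transporters, were each detected in every library. Their sum was 2510 to 4175 under LP and 62062 to 71202 under HP. The study reports most of its listed nitrate transporter genes as lowered by low phosphate. These 2 therefore do not measure root content across the treatments. The 4 markers of leaf and algal chloroplasts were all higher under LP, with a sum of 660 to 820 normalized counts against 0 to 2.09 under HP. Most of the LP sum came from photosystem I subunit III, with 579 to 758 counts. The diatom and green alga markers summed to 46 to 98.3 under LP. The root, leaf and algal markers were all named from the study's lists of genes that differed between these libraries. Their difference between treatments was thus fixed by the choice, and no cell type or organism is called from them. The photosystem I subunit III and 1 of the 2 fucoxanthin proteins of the diatom type were at 0 in every HP library.

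All 30 members passed the filter on low counts. With a normalized read count defined as the estimated count scaled by the library's TMM factor to a common depth, and a unigene called where its adjusted p was below 0.05 and its level differed by 1 or more on the log2 scale, 29 of the 30 members were called. Of these, 16 were higher and 13 lower under LP. Calls were made for 13.2% of all 62040 unigenes tested, with 6.09% higher and 7.1% lower. The LP and HP libraries did not overlap for any of the 30 members, against 42.4% of all unigenes tested without overlap. Nothing is read from the members' counts, since the same libraries had chosen them. The median log2 fold change was 1.04 over the members, also with the members without HP reads at their lower bound, and 0.03 over all unigenes tested. The study's list required a change of at least 1 on the log2 scale, so few member values lie near 0. The member median therefore depends mainly on which direction held more members, and no shift is read from it.

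**Figure D1:**
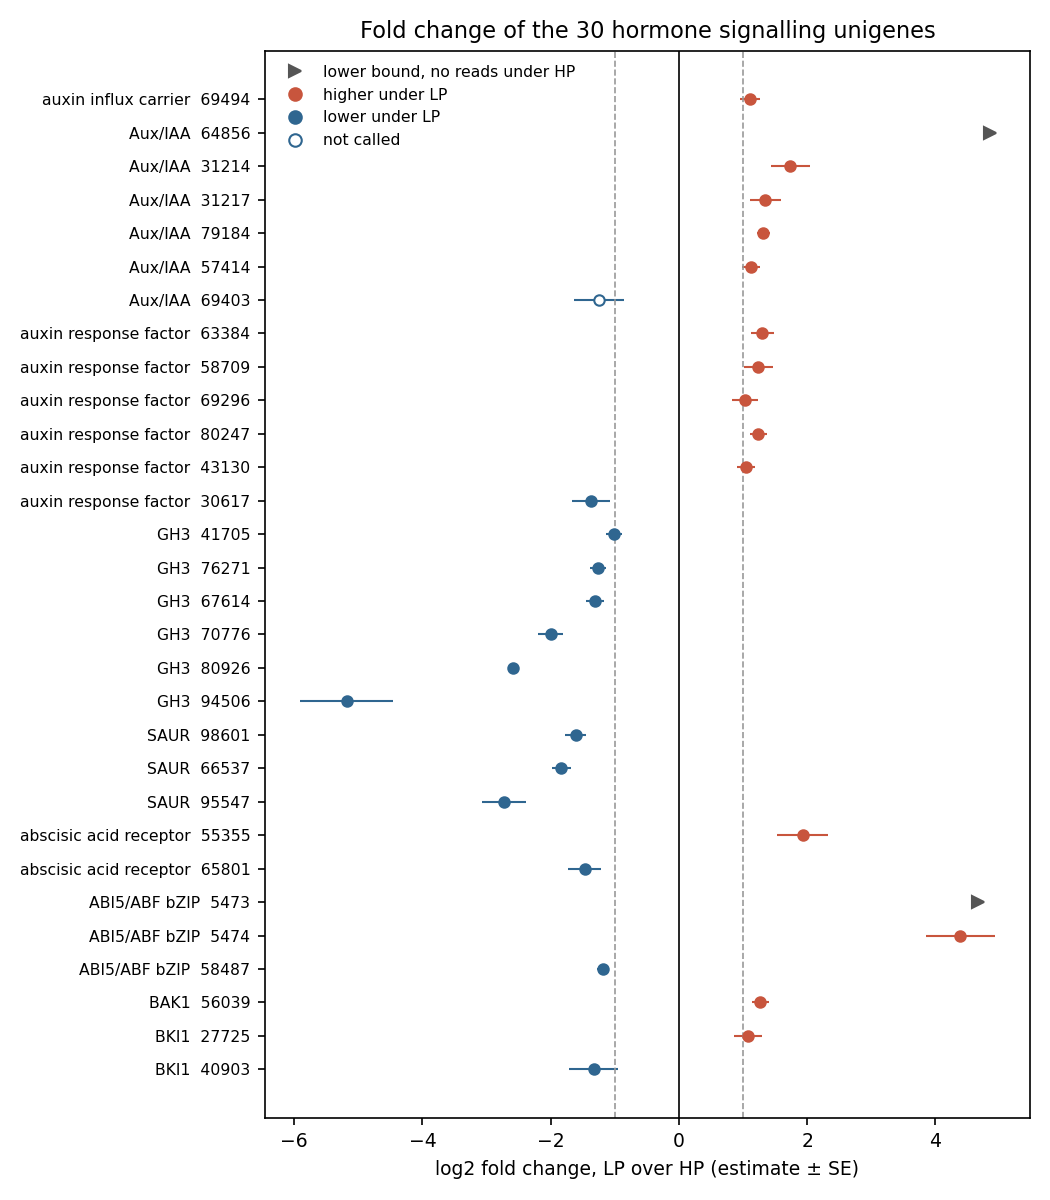
The log2 fold change of LP over HP is plotted for each unigene by role, with points for the estimate, bars for its standard error and grey arrowheads for lower bounds where HP had no reads. All 6 GH3 and all 3 SAUR unigenes lie left of 0, whereas 5 of 6 ARF and 5 of 6 Aux/IAA unigenes lie right of it, and the open point is Cluster-8255.69403, which was not called.

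Auxin influx was represented by Cluster-8255.69494, described as auxin transporter-like protein 1, a member of the AUX1/LAX carriers that bring auxin into cells. It had 342, 402 and 297 normalized counts in the LP libraries and 171, 140 and 169 in the HP libraries. The lowest LP library lay above the highest HP library, and the log2 fold change was 1.11 ± 0.16 (SE). All of its counts were whole numbers in the 6 libraries, so none of its reads had been divided with another unigene in a way that leaves a fraction.

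The Aux/IAA group, repressors of auxin response, had 6 unigenes, of which 5 were called higher under LP and 1 was not called. Of these 5, 4 were described as IAA27 or IAA27-like. The most abundant per length, Cluster-8255.79184, had 861, 757 and 815 normalized counts under LP and 334, 305 and 336 under HP, with a log2 fold change of 1.32 ± 0.10. Its mean was 811 ± 51.7 and 325 ± 17.5 (SD, n = 3).

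Cluster-8255.57414, the longest of the IAA27 unigenes, had 1294, 1221 and 1624 normalized counts under LP and 607, 586 and 698 under HP (log2 fold change 1.13 ± 0.14). Cluster-8255.31217 had 103, 87.6 and 99.2 against 36.5, 32.7 and 44.9, and Cluster-8255.31214 had 84.2, 56.0 and 80.9 against 19.8, 25.4 and 20.7. The 4 IAA27 unigenes were thus higher in every LP library than in any HP library, by 2.19-fold to 3.35-fold in the ratio of mean normalized counts. Summed over the 4, the FPKM, a level per unigene length and library size, was 204 ± 16 under LP and 82.0 ± 5.28 under HP (SD, n = 3). All 4 had counts that were not whole in 5 or 6 libraries, so RSEM had divided reads among them or with other unigenes, and their separate values are less certain than the sum.

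Cluster-8255.64856 carries only a family name, auxin responsive protein, and was placed with the Aux/IAA unigenes by that name. It had 33.9, 16.2 and 47.8 normalized counts in the LP libraries and no reads in any HP library. Set against a floor of 3 reads over the HP libraries, it was at least 28.8-fold higher under LP, a bound that covers counting error only. Its effective length, the length over which RSEM counts reads, was only 152 bases. Of the chloroplast markers above, those at 0 under HP showed the same pattern of reads in LP libraries alone, and their part in this result was not tested.

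The remaining Aux/IAA unigene, Cluster-8255.69403, was described as IAA9, a repressor best known from leaf and fruit development in tomato. It had 451, 1355 and 772 normalized counts under LP and 1645, 1897 and 2588 under HP. The LP libraries were spread widely and still lay below all HP libraries. With a log2 fold change of -1.25 ± 0.39 it was the only member that was not called, and it passed the thresholds once LP library 2 was left out (log2 fold change -1.73). IAA9 made up 45.6% ± 4.69 of the summed Aux/IAA FPKM under HP and 12.0% ± 6.84 under LP (SD, n = 3), whereas Cluster-8255.79184 made up 26.6% ± 3.13 and 40.6% ± 2.89. The most abundant single Aux/IAA unigene per length among the members therefore differed between the treatments. This depends on taking the IAA27 unigenes, with their divided reads, 1 by 1. Their sum was 82.0 ± 5.28 FPKM under HP, against 69.8 ± 16.6 for IAA9, and 204 ± 16 against 29.2 ± 16 under LP (SD, n = 3). Counts of the IAA9 unigene were not whole in any library, so its level and share are uncertain too.

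**Figure D2:**
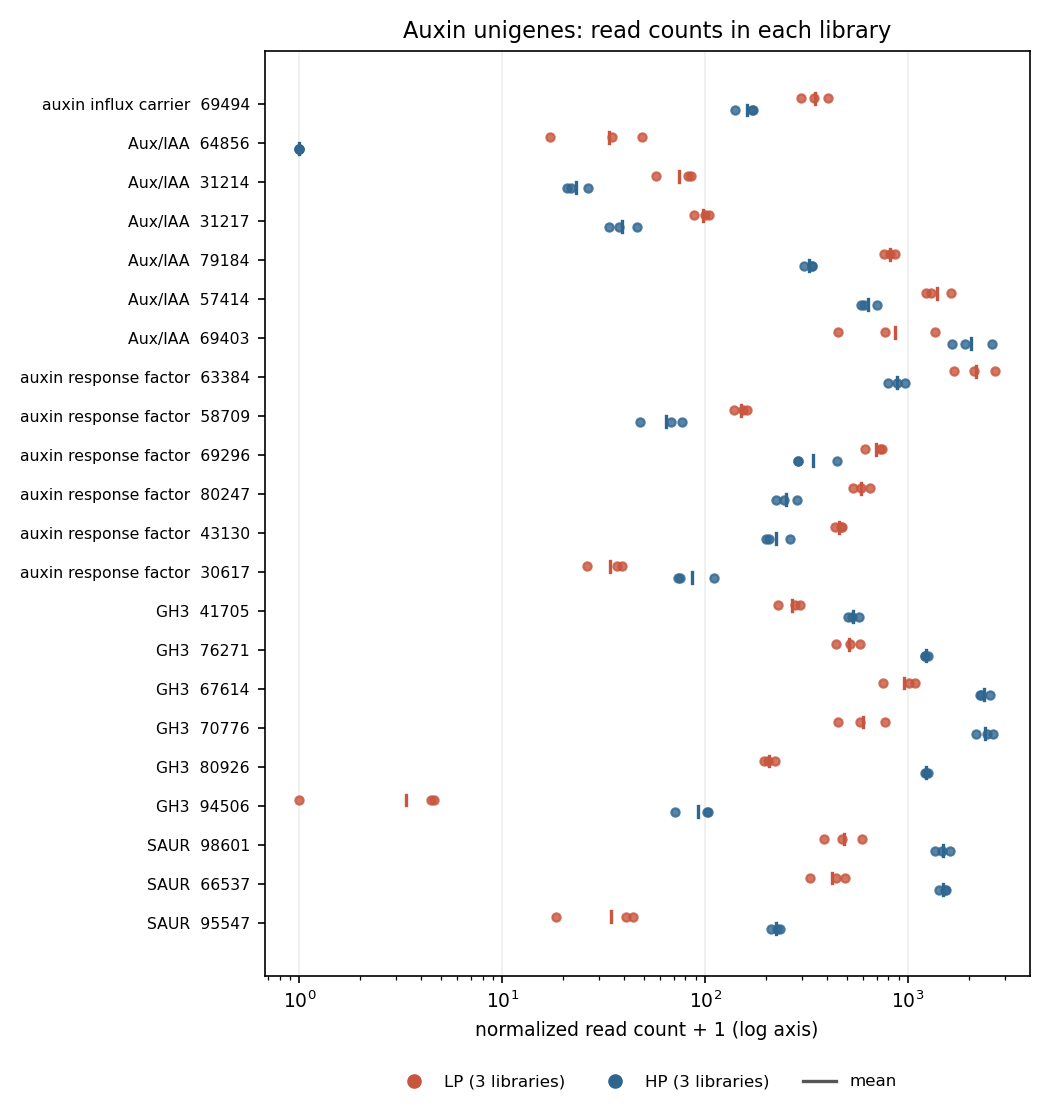
Normalized read counts plus 1 are shown on a log axis for the 22 auxin unigenes in each of the 3 LP libraries (red) and 3 HP libraries (blue), with a bar at each mean. Within no unigene do the treatments overlap, and the IAA9 unigene Cluster-8255.69403 shows LP libraries spread from 451 to 1355 counts.

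The ARF group, transcription factors that bind auxin response elements, had 6 unigenes, of which 5 were called higher and 1 lower under LP. Of these, 3 were described as ARF9 or ARF9-like. The most abundant per length, Cluster-8255.63384, had 2679, 2122 and 1691 normalized counts under LP and 796, 876 and 961 under HP, with a log2 fold change of 1.30 ± 0.18. The mean was 2164 ± 495 under LP and 878 ± 82.3 under HP (SD, n = 3).

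The other ARF9 unigenes were Cluster-8255.58709, with 138 to 160 normalized counts under LP and 47.0 to 76.3 under HP, and Cluster-8255.69296, with 610 to 739 and 286 to 447. The summed FPKM of the ARF9 unigenes was 69.5 ± 11.4 under LP and 30.2 ± 3.71 under HP (SD, n = 3). Cluster-8255.80247, described as ARF1, which acts as a repressor in Arabidopsis, had 533 to 648 counts under LP and 223 to 282 under HP (log2 fold change 1.24 ± 0.13). Cluster-8255.43130, like ARF3, which is known from flower development in Arabidopsis, had 436 to 471 and 199 to 260 (log2 fold change 1.05 ± 0.14), and its counts were whole in every library. These 5 unigenes had fold changes close to one another, from 1.03 to 1.30 on the log2 scale.

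Cluster-8255.30617, described as ARF19, an activator of lateral root formation in Arabidopsis, went the other way. It had 25.2, 37.9 and 35.8 normalized counts under LP and 110, 73.8 and 72.6 under HP, with a log2 fold change of -1.37 ± 0.30. Its level per length was 1.87 ± 0.391 FPKM under LP and 4.88 ± 1.21 under HP (SD, n = 3), or 1.63% and 8.87% of the summed ARF level. The summed ARF FPKM was 117 ± 12.7 under LP and 56.0 ± 5.34 under HP.

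The GH3 group encodes enzymes that join auxin to amino acids and so lower the free hormone, and its genes are classical early auxin responses. All 6 GH3 unigenes were lower under LP and all were called, with a median log2 fold change of -1.66. Cluster-8255.94506, described as GH3.5, had 3.47, 3.61 and 0 normalized counts under LP and 69.9, 102 and 101 under HP, a log2 fold change of -5.18 ± 0.73. The LP level rested on 8 reads over the 3 libraries, so the size of this ratio is uncertain although the treatments lay far apart.

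Cluster-8255.80926, GH3.5-like, had 219, 193 and 203 normalized counts under LP and 1247, 1224 and 1205 under HP. This was 5.98-fold lower under LP, with a log2 fold change of -2.58 ± 0.09, one of the smallest errors among the members. Cluster-8255.76271, also GH3.5-like, had 438, 514 and 580 against 1206, 1246 and 1212, which was 2.39-fold lower. Under HP these 2 unigenes had nearly the same level per length, 39.2 ± 0.879 and 40.9 ± 0.423 FPKM, and under LP the levels were 6.49 ± 0.406 and 16.9 ± 2.15 (SD, n = 3). Their counts were not whole in any library, so reads were divided and their separate levels are uncertain.

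Cluster-8255.70776, described as an indole-3-acetic acid-amido synthetase, had 452, 579 and 771 normalized counts under LP and 2441, 2155 and 2610 under HP. It was 4-fold lower under LP (log2 fold change -2.0 ± 0.20), with whole counts in every library. The GH3.6-like unigenes were Cluster-8255.67614, with 755 to 1080 against 2257 to 2526 counts, and Cluster-8255.41705, with 228 to 292 against 505 to 573. The latter had the smallest change of the group, a log2 fold change of -1.01 ± 0.13. Together the GH3 unigenes had 66.0 ± 9.13 FPKM under LP and 208 ± 7.71 under HP (SD, n = 3), 3.15-fold lower under LP.

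SAUR genes encode small proteins, made quickly after auxin, that are known to promote cell expansion. All 3 SAUR unigenes were lower under LP and called. Cluster-8255.66537, described as auxin-induced protein 10A5, had 329, 439 and 490 normalized counts under LP and 1423, 1522 and 1534 under HP, and Cluster-8255.98601, described as indole-3-acetic acid-induced protein ARG7, had 384, 472 and 595 against 1359, 1603 and 1469. Cluster-8255.95547, a SAUR-like unigene of lower level, had 17.4, 39.7 and 43.2 against 225, 232 and 209.

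The log2 fold changes of the SAUR unigenes were -1.83 ± 0.15, -1.61 ± 0.17 and -2.73 ± 0.34 in that order. In each of them the first LP library was the lowest of the 6. All their counts were whole in every library. The summed SAUR FPKM was 76.6 ± 15.1 under LP and 258 ± 12.6 under HP (SD, n = 3). By these sums over members SAUR was the most abundant role per length under HP, and Aux/IAA under LP, at 245 ± 8.16 FPKM against 152 ± 20.9. All role sums and shares given here cover only the members, chosen for differing between the treatments. Unigenes of the same families outside the members are left out, so the sums do not rank whole families. The Aux/IAA sum includes IAA27 unigenes of 128 to 1341 bases with divided reads. Whether these are pieces of fewer genes was not tested, and pieces of 1 gene would count more than once in such a sum.

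**Figure D3:**
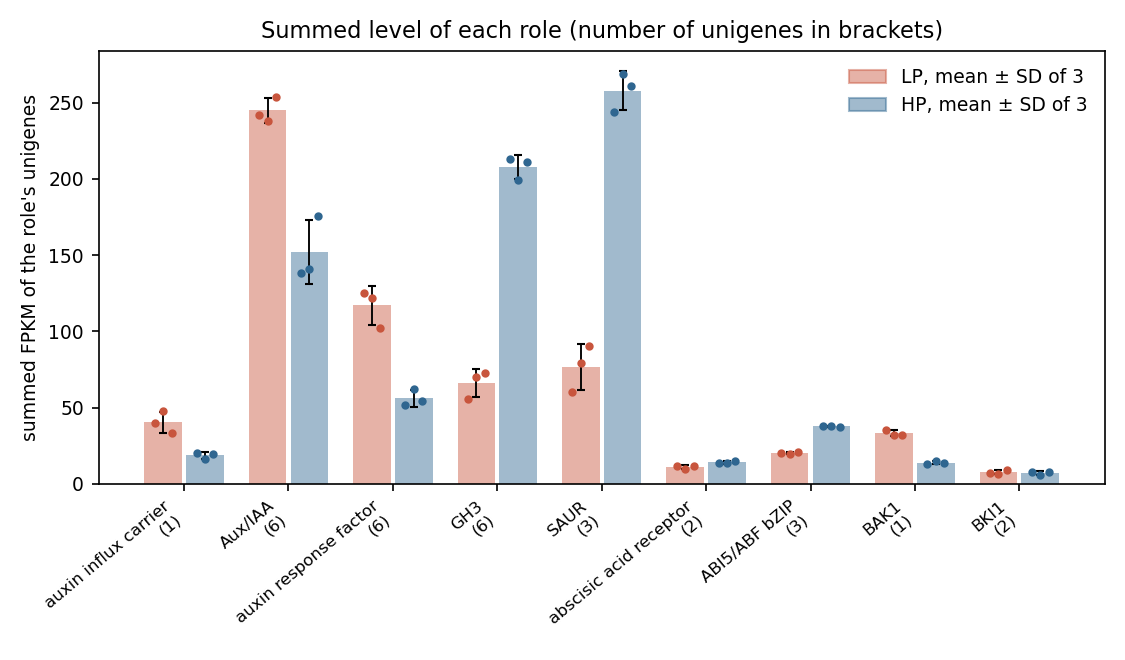
Bars give the mean summed FPKM of the member unigenes of each role, with error bars for the SD and points for the 3 libraries of each treatment. The influx carrier, Aux/IAA, ARF and BAK1 bars are higher under LP, GH3 stands at 66.0 under LP and 208 under HP, SAUR at 76.6 and 258, and the BKI1 sums of 7.62 and 7.0 lie close together.

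Within auxin signalling the roles thus stood on opposite sides, with the carrier and most Aux/IAA and ARF unigenes higher and the GH3 and SAUR unigenes lower under LP. Over all 22 auxin unigenes 11 were called higher and 10 lower. Their median log2 fold change of 0.01 falls in the gap around 0 left by the choice and describes no unigene. Whole roots were sequenced, so a lower level in fewer cells and a lower level per cell cannot be told apart.

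Abscisic acid perception was represented by PYL receptors that stood on opposite sides. Cluster-8255.55355, PYL8-like, the type known in Arabidopsis for a role in lateral root growth, had 141, 64.1 and 116 normalized counts under LP and 27.1, 37.5 and 19.6 under HP (log2 fold change 1.93 ± 0.40). Cluster-8255.65801, PYL2-like, had 51.2, 98.4 and 79.9 under LP and 204, 194 and 241 under HP (log2 fold change -1.47 ± 0.26). For neither receptor did the treatments overlap.

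Under HP the PYL2-like unigene made up 87.0% ± 4.71 of the summed level of both receptors, and under LP the PYL8-like unigene made up 59.5% ± 16.9 (SD, n = 3). Counts of the PYL8-like unigene were not whole in any library, so reads were divided and its level and these shares are uncertain. The sum of both receptors was 11.1 ± 1.11 FPKM under LP and 14.0 ± 0.950 under HP.

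Among the bZIP factors at the end of the abscisic acid pathway, 2 ABI5-like unigenes were higher and 1 ABF-type unigene was lower under LP. ABI5 itself is known in Arabidopsis from seed germination. Cluster-8255.5473, ABI5-like, had 39.9, 22.6 and 23.0 normalized counts under LP and no reads under HP, so that it was at least 25.4-fold higher under LP against a floor of 3 reads over the HP libraries. Cluster-8255.5474, described as ABI5-like protein 3, had 81.6, 50.5 and 85.4 against 5.22, 1.21 and 3.46, with a log2 fold change of 4.39 ± 0.54. Both were low in level, at 0.753 ± 0.275 and 3.16 ± 0.787 FPKM under LP (SD, n = 3). Each had counts that were not whole in 3 libraries, so reads were divided and their separate levels are uncertain. Whether these 2 unigenes are pieces of 1 gene was not tested. As for Cluster-8255.64856, chloroplast markers absent under HP differed between the treatments in the same direction, and their part was not tested.

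Cluster-8255.58487, described as ABI5-like protein 5 or ABF2, a factor known in Arabidopsis from drought and sugar responses, had 342, 357 and 373 normalized counts under LP and 819, 824 and 804 under HP. Its log2 fold change was -1.19 ± 0.08, and its HP libraries varied by 1.28% of their mean, the least of any member. It held 99.6% ± 0.235 of the summed level of the bZIP members under HP and 80.7% ± 4.15 under LP (SD, n = 3). The summed level thus followed it, with 20.2 ± 0.739 FPKM under LP and 37.6 ± 0.527 under HP. Counts of Cluster-8255.58487 were not whole in any library, so its level and these shares are uncertain.

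**Figure D4:**
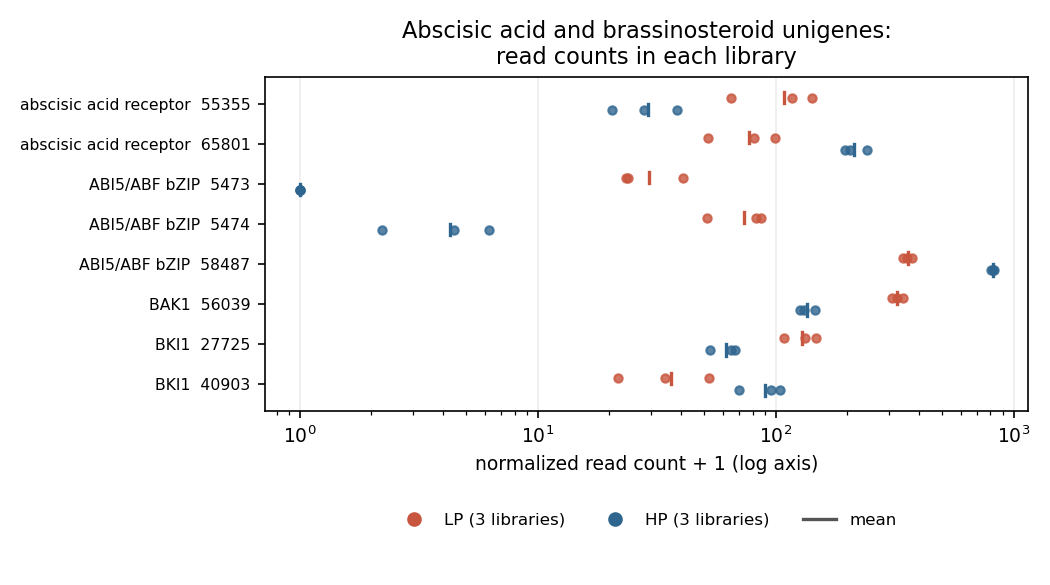
Normalized read counts plus 1 are shown on a log axis for the 5 abscisic acid and 3 brassinosteroid unigenes in each LP library (red) and HP library (blue), with a bar at each mean. The receptor pair and the BKI1 pair each hold 1 unigene higher and 1 lower under LP, and Cluster-8255.5473 lies at 0 counts in the HP libraries.

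Brassinosteroid signalling was represented by the co-receptor and the receptor inhibitor. Cluster-8255.56039, BAK1, had 342, 306 and 323 normalized counts under LP and 126, 146 and 131 under HP. The log2 fold change was 1.27 ± 0.13, and the level was 33.2 ± 1.82 FPKM under LP and 13.9 ± 0.914 under HP (SD, n = 3). BAK1 also serves receptors other than that of brassinosteroids.

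The BKI1 unigenes stood on opposite sides. Cluster-8255.27725 had 132, 107 and 147 normalized counts under LP and 63.7, 52.1 and 66.8 under HP (log2 fold change 1.08 ± 0.22), and Cluster-8255.40903 had 20.8, 33.4 and 51.5 against 103, 69.0 and 94.5 (log2 fold change -1.33 ± 0.38). Neither overlapped between the treatments. Cluster-8255.27725 made up 79.2% ± 6.54 of the summed BKI1 level under LP and 41.3% ± 2.38 under HP, while the sum was 7.62 ± 1.24 FPKM and 7.0 ± 1.21 (SD, n = 3), so the sums of the treatments overlapped within their spread.

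A further 24 unigenes of the same pathways came from other lists of the study, which were also selected on these libraries and are therefore no independent evidence. The filter was passed by 23 of them, with 10 called in each direction. Of all unigenes tested, 6.09% were called higher and 7.1% lower. Nothing is read from the counts of called unigenes in these lists, since the same libraries had chosen them. The abscisic acid unigenes among them were divided, with 4 called higher and 5 lower of 10. The SnRK2 kinases, which carry the signal to the bZIP factors, had 2 called higher and 3 lower. One that was lower, Cluster-8255.67153, had 677, 708 and 855 normalized counts under LP and 1463, 1541 and 1549 under HP (log2 fold change -1.02 ± 0.11).

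Of the PP2C unigenes, whose phosphatases the receptors inhibit, Cluster-8255.47713 had 117, 93.0 and 121 normalized counts under LP and 27.1, 35.1 and 62.2 under HP. Cluster-8255.35546 had no reads under LP and 87.7, 96.8 and 62.2 counts under HP, at least 91.7-fold lower under LP against a floor of 3 reads over the LP libraries. Of the brassinosteroid unigenes, 1 of 3 cyclin D3 unigenes, which drive cell division, was called higher, and the somatic embryogenesis receptor-like kinase Cluster-8255.87486, of the family to which BAK1 belongs, was called lower. The latter had 445, 470 and 502 counts under LP and 1269, 1116 and 1472 under HP (log2 fold change -1.44 ± 0.12), the reverse of the BAK1 unigene. Counts were not whole in 6 libraries for Cluster-8255.87486 and in 5 for the BAK1 unigene. Reads were thus divided, with each other or with other unigenes, and their separate levels are uncertain.

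Auxin transport out of cells involves the ABCB19 and ABCB4 transporters. Of 5 ABCB19 unigenes 4 were called higher and 1 lower, and all 3 ABCB4-like unigenes were called lower under LP. The 4 higher ABCB19 unigenes had few or no reads under HP. Cluster-8255.116649 had 13.9, 84.8 and 38.6 normalized counts under LP and Cluster-8255.116650 had 39.9, 20.8 and 134, both with no reads under HP. Cluster-8255.16107 had 164, 140 and 280 against 1.04, 0 and 3.46, and Cluster-8255.10961 had 16.5, 31.6 and 47.8 against 0, 1.21 and 0. The leaf and algal chloroplast markers, with summed counts of 660 to 820 under LP and 0 to 2.09 under HP, also had few or no HP reads. What they share with these unigenes is the difference between treatments, on which all had been chosen, and their part was not tested. Among the ABCB4-like unigenes, Cluster-8255.64232 had 122, 74.9 and 116 normalized counts under LP and 524, 522 and 492 under HP, a log2 fold change of -2.29 ± 0.20. The unigene described as auxin-induced in root cultures, Cluster-8255.67463, had 5966, 5980 and 5052 under LP and 2817, 2726 and 2724 under HP (log2 fold change 1.04 ± 0.10). The efflux carrier Cluster-8255.77341 had 127, 56.9 and 74.4 against 0, 30.3 and 0 and was not called.

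Level, length and read sharing were not named in the choice. Level and length still set the read counts on which its test rested, so the members' values here are not independent of it. The members had a median of 16.8 FPKM over the 6 libraries against 2.59 for all unigenes tested, 4.9 for those called higher and 4.31 for those called lower under LP. Their median effective length was 1140 bases, against 1396 for all tested and 1175 and 1242 for those called higher and lower. Of the members, 5 of 30 were under 500 bases (16.7%, against 14.5% of all tested and 16.7% and 17.8% of those called higher and lower). All 5 of these were higher under LP and belonged to the carrier and the Aux/IAA unigenes, whereas the GH3 unigenes were 1591 to 2571 bases long. Counts were not whole in at least 1 library for 22 members (73.3%, against 81.8% of all tested and 78.3% and 73.3% of those called higher and lower).

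Spread between libraries enters a test such as the one behind the choice, and it is given here as a description. The median coefficient of variation was 18.8% under LP and 11.2% under HP (28 members with reads there), against 26.2% and 22.4%. The LP value ranged from 3.97% for the ARF3-like Cluster-8255.43130 to 86.7% for the GH3.5 unigene Cluster-8255.94506.

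The members just inside the fold limit were Cluster-8255.41705 at a log2 fold change of -1.01, Cluster-8255.69296 at 1.03 and Cluster-8255.43130 at 1.05, and just outside the call was Cluster-8255.69403 alone. Leaving out each library in turn, 22 of the 30 members were called in all 6 fits. The share of all unigenes called in all 6 was not computed, and nothing is read from this count. The ARF3-like Cluster-8255.43130 lost its call without HP library 3, and over the 6 fits its log2 fold change was 0.98 to 1.17. The call was lost without LP library 1, HP library 1 or HP library 3 for Cluster-8255.30617 (-1.49 to -1.11), Cluster-8255.41705 (-1.07 to -0.91) and Cluster-8255.55355 (1.68 to 2.2). Cluster-8255.69296 (0.91 to 1.27) lost it without any of these or LP library 2. The BKI1 pair depended most on single libraries. Cluster-8255.27725 (0.98 to 1.20) was called only without LP library 2, and Cluster-8255.40903 (-1.71 to -1.06) only without LP library 3. As a result, 1 of the 3 brassinosteroid unigenes was called without LP library 1 or any of the HP libraries. No log2 fold change of a member changed sign in these fits. Since LP and HP did not overlap for any member, leaving out a library could hardly reverse a sign, and nothing is read from this.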

How the data were processed

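Paired reads were cleaned, assembled with Trinity and quantified with RSEM by the authors, without a reference genome. The values the authors deposited are RSEM's expected counts, unscaled, with reads that fit several unigenes divided among them. The deposited FPKM values were scaled by the authors for length and library size. Bowtie2 2.2.3 is named in the submitters' processing notes. Whether counting used strand was not given in the sources used here, and labels and methods name different kits, so overlapping and antisense unigenes are uncertain. The labels' extraction text also speaks of leaves.

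Counts were rounded, filtered (filterByExpr, minimum count 10), scaled by TMM and tested for LP against HP over all unigenes in edgeR 4.0.16 under R 4.3.3, by its quasi-likelihood test with Benjamini-Hochberg adjustment. The script was tested on simulated data. Effective length was computed from count, FPKM and library total, and a member's value varied by at most 10.1 bases between libraries. Descriptions and hormone sections came from the study's annotation, and all 30 members were named by rule. The roles were assigned here from the descriptions. The members and lists were chosen with earlier results of these data known. The replicates are separate boxes. Deviations of same-numbered libraries correlated only weakly, and no block was used in the main fit, although this does not exclude a pairing. Alternatives were DESeq2 1.42.0, limma 3.58.1, other scalings, filters and thresholds, thinned or unrounded counts, a replicate block and each library left out. The authors' fold changes and p-values were not used.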

Additional observations from a re-analysis of the deposited data

How the results depend on the processing

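No member changed sign under any of the 17 alternatives, although Cluster-8255.64856 could not be fitted with the filter of 1 CPM in 3 libraries, which it did not pass. With no overlap between LP and HP for any member, a reversal was hardly possible, so the constant sign is no evidence of robustness. Against 8183 unigenes called in all and 29 of the 30 members, edgeR's glmTreat with a limit of 1 on the log2 scale called 3053 unigenes and 10 members, of which 8 were auxin, 2 abscisic acid and 0 brassinosteroid unigenes. The replicate block called 5167 unigenes and 3 abscisic acid members. The correlation of deviations between same-numbered libraries was -0.006, 0.04 and 0.049, and not every library correlated best with its own number. The values of 0.04 and 0.049 were still the largest over all pairs of an LP and an HP library. With so few libraries, this check cannot decide whether the numbers pair them. On log2(FPKM + 1) with limma, 1 brassinosteroid member was called. With each library left out in turn, the calls ranged from 5586 to 8183 unigenes and from 1 to 2 brassinosteroid members. Every other count was within 1.5 times its value. DESeq2 called 9644 unigenes and all 30 members. Members with few reads in a treatment, such as Cluster-8255.94506 and Cluster-8255.5474, are limited by depth in the size of their ratio. The 3 libraries per treatment limit all standard errors.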
